A study of Homo sapiens with 6 samples.

Results

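The 35 genes described here encode the machinery that carries newly made proteins into the endoplasmic reticulum (ER) and the unfolded protein response that watches over their folding. They were chosen by name, as the rows of the deposited table whose Ensembl identifier maps to the 35 symbols, and all 35 were found among the 29810 genes listed. By role they comprised 8 genes of the signal recognition particle (SRP) and its receptor, 6 of the translocon, 5 of signal peptidase, 3 of the mitochondrial insertase and inner membrane peptidase, 9 ER chaperones, co-chaperones and disulfide isomerases, and 4 sensor and ER-associated degradation (ERAD) genes. The study applied mRNA-seq to Kasumi-1 cells, a human acute myeloid leukemia (AML) line that carries the RUNX1-RUNX1T1 fusion, in order to look for genes linked to the differentiation that I3, an inhibitor of histone deacetylases (HDACs), brings about. There were 3 libraries of cells incubated with 0.25 μM I3 for 48 h and 3 control libraries of cells kept for 48 h without it, with the solvent DMSO alone per the methods. Both groups are the same cell line, with no genetic change between them. The methods say of all experiments that they were done 3 times, but no label ties the 3 libraries of a group to separate cultures, so p-values measure only the spread between these libraries, which may be technical.

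Levels are given as FPKM, the fragments counted on a gene divided by the length of its exons and by the total counted in the library. The totals rebuilt from the values were 17500320 (control 3), 17663214 (control 1) and 17798678 (control 2) reads for the controls and 17794813 (I3 2), 17818414 (I3 1) and 18193373 (I3 3) for the I3 libraries. Positions of genes are those of GENCODE release 29 on GRCh38. The markers of the line were present in every library. MPO, the peroxidase of myeloid granules, lay between 7740 and 8612 FPKM, KIT between 197.8 and 225 FPKM, CD34 between 28.9 and 38.8 FPKM, CD33 between 10.5 and 12.1 FPKM and RUNX1T1 between 14.1 and 17.0 FPKM. SPI1, which encodes PU.1, lay between 63.2 FPKM in I3 3 and 95.6 FPKM in control 2. Of the markers of other cells, JCHAIN of plasma cells was listed at 0 in all 6 libraries, CD3E of T cells reached 0.179 FPKM and COL1A1 of fibroblasts 0.0115 FPKM. CD3D of T cells had 1.09 FPKM (18 reads) in control 2 and at most 0.544 FPKM elsewhere, and EPCAM, an epithelial adhesion gene, had 28.2 to 31.6 FPKM in both groups.

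A protein bound for secretion or for a membrane is recognized by its signal sequence as it leaves the ribosome. SRP binds that sequence, the SRP receptor docks the complex at the ER, the SEC61 channel lets the chain through and signal peptidase cuts the signal off. Inside the ER, chaperones such as HSPA5 (BiP) hold unfolded chains, and when these accumulate the sensors IRE1 (ERN1), PERK and ATF6 raise the transcription of chaperones and of genes that remove misfolded proteins. IRE1 acts by splicing the mRNA of XBP1, which values per gene do not show. Myeloid blasts such as Kasumi-1 cells make large amounts of granule proteins, which take this route.

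The unfolded protein response reaches many of its targets through short promoter elements, and these are shown because several of the chaperone genes, XBP1 and HERPUD1 carry them. Promoters of RefSeq (GRCh38.p14, from 250 bases before to 50 bases after each start) were found for 33 of the 35 genes, all but SRPRA and SPCS1. They were searched on both strands for ERSE, which is CCAAT, 9 further bases and CCACG, and for ERSE-II, which is ATTGG, 1 base and CCACG. In capitals is the whole element, in the gene's own direction, so that an element on the other strand reads as its reverse complement.

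HSPA5 (ERSE, chr9:125241371-125241429, minus strand): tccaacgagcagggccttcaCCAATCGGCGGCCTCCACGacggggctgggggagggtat
HSP90B1 (ERSE, chr12:103930196-103930254, plus strand): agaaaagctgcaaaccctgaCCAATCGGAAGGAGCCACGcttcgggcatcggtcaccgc
HSP90B1 (ERSE reversed, chr12:103930301-103930359, plus strand): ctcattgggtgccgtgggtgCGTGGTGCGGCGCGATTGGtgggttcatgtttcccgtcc
PDIA6 (ERSE, chr2:10812833-10812891, minus strand): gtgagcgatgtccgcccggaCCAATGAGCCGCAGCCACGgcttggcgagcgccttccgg
XBP1 (ERSE, chr22:28800583-28800641, minus strand): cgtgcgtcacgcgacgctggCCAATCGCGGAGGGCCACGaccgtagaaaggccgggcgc
HYOU1 (ERSE-II reversed, chr11:119057360-119057410, minus strand): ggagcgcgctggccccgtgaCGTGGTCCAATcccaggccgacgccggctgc
HYOU1 (ERSE-II reversed, chr11:119057254-119057304, minus strand): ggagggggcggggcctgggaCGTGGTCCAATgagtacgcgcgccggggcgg
SDF2L1 (ERSE-II reversed, chr22:21642094-21642144, plus strand): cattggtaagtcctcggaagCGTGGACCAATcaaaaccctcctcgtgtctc
HERPUD1 (ERSE-II, chr16:56932005-56932055, plus strand): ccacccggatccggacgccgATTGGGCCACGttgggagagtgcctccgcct

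One or the other element stood in 7 of the 33 genes (21.2%) and in 44 of all 27305 genes with a promoter in the RefSeq table (0.161%). ERSE alone was found in 25 of these genes (0.0916%) and ERSE-II in 19 (0.0696%). The ERSE of HSPA5 began 66 bases before the start, that of XBP1 52 bases and that of PDIA6 86 bases, whereas the ERSE-II of HERPUD1 began 117 bases before it. UPRE (TGACGTGG), a further element of this response, stood in SRP19, SEC62 and HYOU1 and in 0.927% of all genes, and in HYOU1 it overlaps the ERSE-II that lies farther from the start. Neither ERSE nor ERSE-II was found in the promoters searched for the SRP, translocon, signal peptidase and mitochondrial genes, nor in those of ERN1, ATF6, DNAJB9, DNAJB11, DNAJC3 and PDIA4. The windows of HSP90B1 and PDIA6 lie inside the longer spans that GENCODE release 29 gives these genes, and those of XBP1 and HERPUD1 reach into them. A match is a description of the letters, not a binding site, and no match says only that these letters are not in this window.

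No gene of the 35, nor any other of the 12960 tested in limma on FPKM, passed both thresholds of the methods (0.0% called). These thresholds are 0.05 for the adjusted p and 0.58 for the size of the log2 fold change. With DESeq on counts, the study reported genes both up and down at the same thresholds. The lack of calls here is that of limma on FPKM, not of the study's own test. All 35 had a mean FPKM above the minimum of 0.5 set for the test, and the 35 log2 fold changes (I3 minus control, on log2(FPKM + 0.5)) ran from -0.19 for HERPUD1 to 0.34 for SPCS3. Their median was 0.016, with 26 above 0 and 9 below, beside a median of 0.011 over all genes tested, with 7026 above 0 and 5934 below. With the GC trend removed the median of the 35 was -0.018 beside 0.0014 over all genes, and without I3 1 it was -0.0059, so this split gives no stable direction. At an unadjusted p under 0.05 in limma, 0 of the 35 were higher (2.08% of all genes tested) and 1 was lower (2.85% of all genes tested). The 3 I3 libraries lay entirely above the controls for 2 of the 35 genes (5.06% of all genes tested) and entirely below for 1 (4.64%). Counts of this size are near the background of the whole table and single out none of the roles. In bulk RNA such as this, fewer cells of a type and less RNA per cell cannot be told apart.

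**Figure D1:**
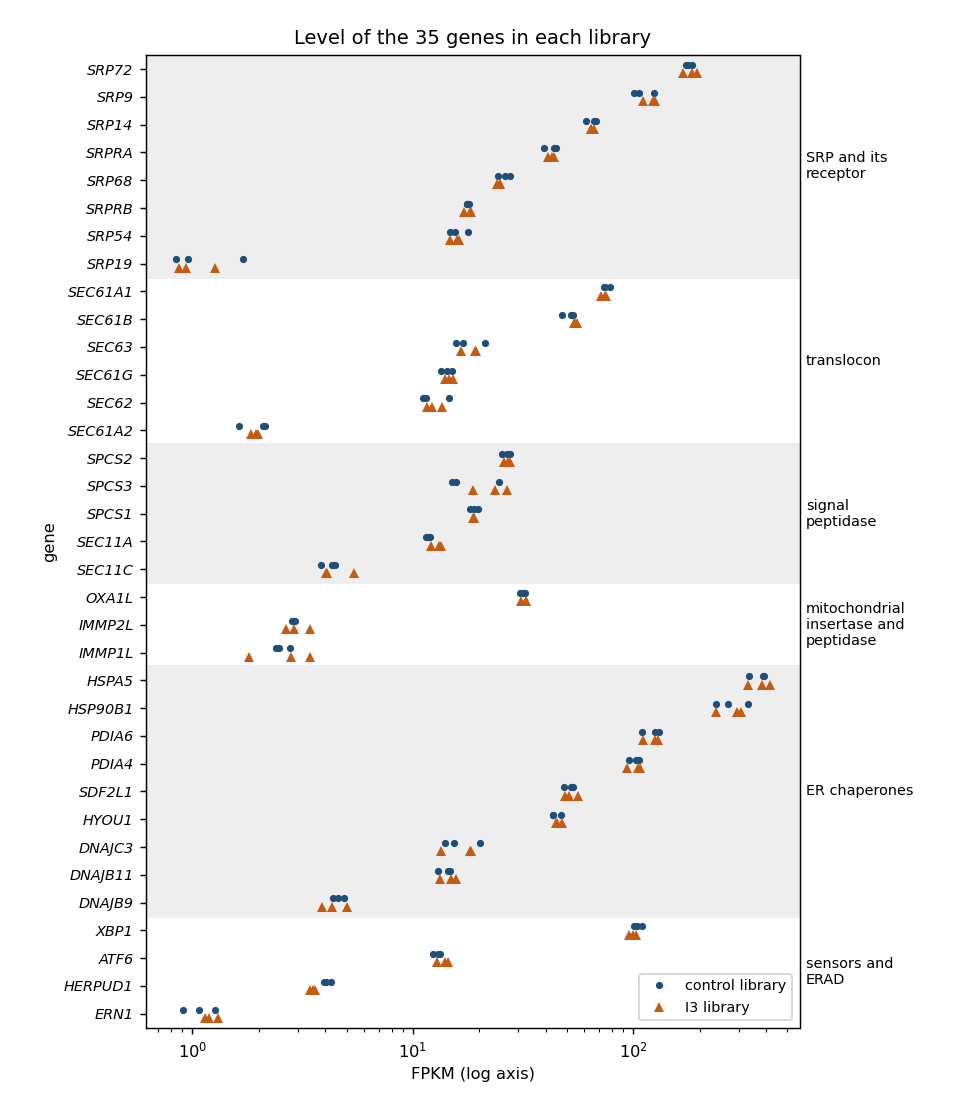
FPKM (log axis) of the 35 genes, grouped by role and ordered by mean level, with a circle for each of the 3 control libraries and a triangle for each of the 3 I3 libraries. The genes span from 1.09 FPKM for SRP19 to 374 FPKM for HSPA5, and the circles and triangles of most genes lie over each other.

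The width of the intervals shows what size of change these libraries leave room for. The 95% interval of the log2 fold change lay inside ±0.58 for 33 of the 35 genes, beside 81.6% of all genes tested. The 2 exceptions were SRP19, with an interval from -0.61 to 0.41, and SPCS3, with one from -0.14 to 0.81. Folds of genes with a low FPKM come out too small here, so for such genes the intervals hold on this scale only. The log2 fold change of ERN1 was 0.12 with the pseudocount of 0.5 and 0.17 with 0.01. The 35 genes had a median level of 18.9 FPKM beside 5.24 FPKM over all genes tested, so the 2 shares are not of genes at like levels.

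**Figure D2:**
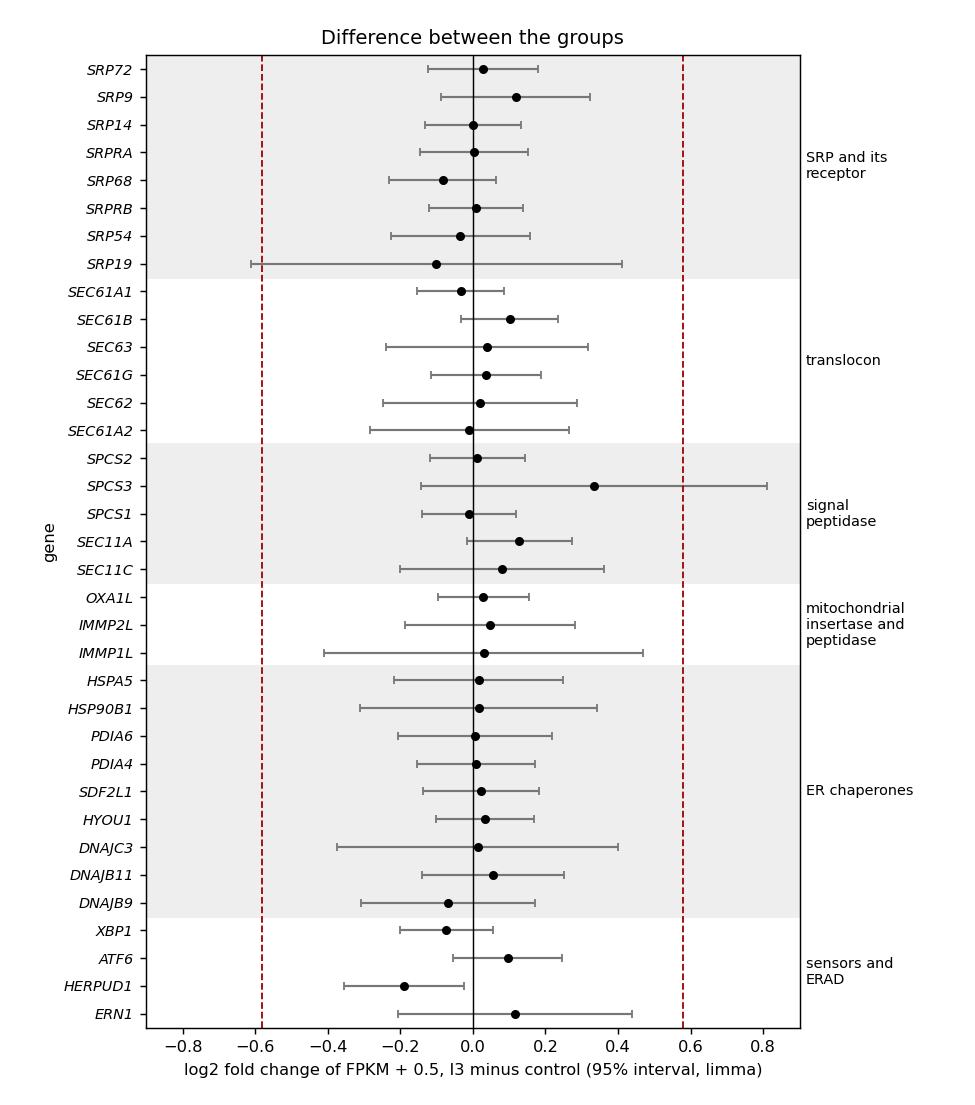
Log2 fold change (I3 minus control, x axis) of each of the 35 genes with its 95% interval from limma, grouped by role, with dashed lines at ±0.58. Only the interval of HERPUD1 (-0.36 to -0.02) lies wholly on one side of 0, and only those of SRP19 and SPCS3 cross a dashed line.

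Among the SRP genes, SRP72, which encodes the large subunit that pairs with SRP68, was the most abundant. SRP72 (ENSG00000174780, chr4:56467336-56503681) had 174, 185 and 176 FPKM in control 1, 2 and 3 and 167, 185 and 194 FPKM in I3 1, 2 and 3. The highest and the lowest value were both of I3 libraries, and the groups overlapped. Its log2 fold change was 0.03 (SE 0.06, adjusted p = 0.998, limma with Benjamini-Hochberg adjustment). Its mean level of 180.2 FPKM was above that of 98.8% of the genes tested. Per exon length the partner genes were lower, with means of 115 FPKM for SRP9 and 64.8 FPKM for SRP14, the pair that pauses translation. SRP68 had 25.3 FPKM, SRP54, the GTPase that binds the signal sequence, 15.8 FPKM, and SRP19, which helps to assemble the particle, 1.09 FPKM. Per kilobase of coding transcripts, however, SRP9 stood close to SRP72 (367 against 370). Protein-coding genes around SRP72 on chromosome 4 ranged from 0.0544 FPKM for HOPX to 115 FPKM for PAICS, with the adjacent ARL9 at 6.18 FPKM.

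SRP19 was the least abundant of the 35 per exon length. Its exons in GENCODE release 29 add up to 10517 bases, of which 1909 are shared with other genes on the same strand, and per kilobase of its coding transcripts (937 bases) the value was 12.3. Its reads numbered 316, 178 and 155 in the controls and 237, 175 and 167 in the I3 libraries, the library numbered 1 standing highest in both groups. The receptor subunits, SRPRA with 42.4 FPKM and SRPRB with 17.8 FPKM, were among the steadiest genes, and SRPRB varied by a factor of 1.08 between its lowest and its highest library. No SRP or receptor gene had an unadjusted p under 0.05, and the median log2 fold change of the 8 genes was 0.0022, a value whose sign turned with the GC trend removed (-0.027), with median-of-ratios scaling (-0.011) and without I3 2 (-0.0044) or I3 3 (-0.016).

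SEC61A1, which encodes the pore of the translocon, was its most abundant gene per exon length, and per kilobase of coding transcripts it stood close to SEC61B (108 against 111). SEC61A1 (ENSG00000058262, chr3:128051641-128071683) had 73.8, 78.0 and 74.1 FPKM in the control libraries and 74.4, 75.3 and 71.0 FPKM in the I3 libraries. The groups overlapped, with a log2 fold change of -0.03 (SE 0.05, adjusted p = 0.998, limma with Benjamini-Hochberg adjustment). Its 95% interval, from -0.15 to 0.09, was one of the narrower ones. The paralogous pore gene SEC61A2 had only 1.95 ± 0.288 FPKM in control and 1.92 ± 0.0739 FPKM in I3 (mean ± SD, n = 3).

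The 2 pore genes were compared within each library. Per exon length, SEC61A1 exceeded SEC61A2 by a factor of 39.2 ± 5.73 in control and 38.3 ± 0.577 in I3 (mean ± SD, n = 3). The size of this factor depends on the length used, and per kilobase of coding transcripts the levels were 108 and 3.87. The groups overlapped, and a two-sided exact permutation test of the log2 ratio gave p = 1.0, where the smallest p that 3 against 3 libraries allow is 0.1.

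The small tail-anchored subunit SEC61B was a member whose groups did not overlap. SEC61B (ENSG00000106803, chr9:99222064-99230615) had 47.6, 51.9 and 53.0 FPKM in control 1, 2 and 3 and 54.0, 54.1 and 55.4 FPKM in I3 1, 2 and 3. Every I3 library lay above every control library, though I3 1 exceeded control 3 by less than the spread of the controls (SD 2.82 FPKM). The log2 fold change was 0.10 (SE 0.06, 95% interval -0.03 to 0.23), with an unadjusted p of 0.115 and an adjusted p of 0.998 in limma. Without control 1 the log2 fold change was 0.055, and with median-of-ratios scaling of the libraries the groups of SEC61B overlapped. The gamma subunit, SEC61G, had 14.4 FPKM, while SEC62 and SEC63, which help short and slow precursors through the channel, had 12.4 and 18.2 FPKM. SEC62 and SEC63 varied by factors of 1.32 and 1.35 between the lowest and the highest library, beside 1.10 for SEC61A1 and 1.32 for SEC61A2, with control 1 highest and control 2 lowest in both.

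Signal peptidase was led per exon length by SPCS2, an accessory subunit, whereas per kilobase of coding transcripts SPCS1 (105) and SEC11A (57.7) stood above SPCS2 (45.7). SPCS2 (ENSG00000118363, chr11:74949247-74979031) had 27.5, 25.5 and 26.7 FPKM in control 1, 2 and 3 and 27.5, 25.9 and 27.0 FPKM in I3 1, 2 and 3. The libraries of the same number in both groups were close to each other, and the log2 fold change was 0.01 (SE 0.06, adjusted p = 0.998, limma with Benjamini-Hochberg adjustment). SPCS1, another accessory subunit, had 19.0 ± 0.823 FPKM in control and 18.9 ± 0.104 FPKM in I3 (mean ± SD, n = 3), and 3095 of its 5324 exon bases are shared with genes on the other strand.

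SEC11A, a catalytic subunit, was the other member whose I3 libraries all lay above the controls. SEC11A (ENSG00000140612, chr15:84669538-84716716) had 11.7, 11.5 and 11.9 FPKM in control 1, 2 and 3 and 13.1, 12.1 and 13.3 FPKM in I3 1, 2 and 3. The gap between I3 2 and control 3 was small beside the spread of the I3 libraries (SD 0.68 FPKM). Its log2 fold change was 0.13 (SE 0.06, 95% interval -0.02 to 0.27), with an unadjusted p of 0.0752 and an adjusted p of 0.998 in limma. The groups of SEC11A overlapped with median-of-ratios scaling and also with the GC trend of each library removed.

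The paralogous catalytic subunit SEC11C was lower, at 4.20 ± 0.314 FPKM in control and 4.50 ± 0.771 FPKM in I3 (mean ± SD, n = 3). Per exon length, the ratio of SEC11A to SEC11C was 2.80 ± 0.175 in control and 2.90 ± 0.444 in I3. The groups of this ratio overlapped, with an exact two-sided permutation p of 0.9. Its size also depends on the length used, and per kilobase of coding transcripts the levels were 57.7 and 16.3.

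SPCS3, the accessory subunit that is essential for the enzyme in yeast, had the largest fold change of the 35 and the widest range on log2(FPKM + 0.5), 0.81, although SRP19 and IMMP1L had larger ratios of the highest to the lowest FPKM (2.02 and 1.88 against 1.78). SPCS3 (ENSG00000129128, chr4:176319964-176332245) had 24.6, 15.1 and 15.7 FPKM in control 1, 2 and 3 and 23.6, 18.8 and 26.9 FPKM in I3 1, 2 and 3. Control 1 stood among the I3 libraries, far above the other controls. Its log2 fold change of 0.34 (SE 0.20) had an unadjusted p of 0.141 and an adjusted p of 0.998 in limma. Without control 1 the log2 fold change was 0.56 and SPCS3 had an unadjusted p under 0.05, whereas it was 0.21 without control 2, 0.24 without control 3 and 0.22 without I3 3.

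OXA1L, the insertase of the mitochondrial inner membrane, is listed with protein export although it acts outside the ER. OXA1L (ENSG00000155463, chr14:22766522-22773041) had 30.5, 32.2 and 31.5 FPKM in control 1, 2 and 3 and 30.8, 32.7 and 32.7 FPKM in I3 1, 2 and 3. The groups overlapped and the log2 fold change was 0.03 (SE 0.05, adjusted p = 0.998, limma with Benjamini-Hochberg adjustment). It was the steadiest of the 35 genes, its highest library exceeding its lowest by a factor of 1.07. IMMP1L and IMMP2L, the subunits of the inner membrane peptidase, had 2.61 and 2.93 FPKM. IMMP1L spread from 1.81 FPKM in I3 2 to 3.41 FPKM in I3 3, on 126 and 242 reads, while its 3 controls lay between 2.38 and 2.78 FPKM.

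Of the ER chaperones, HSPA5 (BiP), which binds unfolded chains and holds the sensors inactive, was the most abundant of all 35 genes. HSPA5 (ENSG00000044574, chr9:125234853-125241330) had 393, 334 and 388 FPKM in control 1, 2 and 3 and 416, 332 and 383 FPKM in I3 1, 2 and 3. In each group the library numbered 2 stood well below the other 2, and the groups overlapped almost completely. I3 and control differed by a log2 fold change of 0.02 (SE 0.10, 95% interval -0.22 to 0.25, adjusted p = 0.998, limma with Benjamini-Hochberg adjustment). HSP90B1 (GRP94), the ER member of the HSP90 family, followed with 278 ± 46.7 FPKM in control and 281 ± 37.6 FPKM in I3 (mean ± SD, n = 3).

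The disulfide isomerases PDIA6 and PDIA4 had 122 and 101.6 FPKM, and SDF2L1 and HYOU1, a component of an ER chaperone complex and the nucleotide exchange factor of BiP, had 51.6 and 45.1 FPKM. The J-domain co-chaperones of BiP were lower, with 16.6 FPKM for DNAJC3, 14.3 FPKM for DNAJB11 and 4.50 FPKM for DNAJB9. DNAJB9 (ERdj4, ENSG00000128590, chr7:108569568-108574850), which is strongly induced by XBP1, had 4.87, 4.36 and 4.59 FPKM in control 1, 2 and 3 and 5.02, 3.86 and 4.28 FPKM in I3 1, 2 and 3. The I3 libraries spanned the whole range of the controls, with a log2 fold change of -0.07 (SE 0.10, adjusted p = 0.998, limma with Benjamini-Hochberg adjustment). For DNAJB9 this was -0.13 with the GC trend removed, -0.16 without I3 1 and 0.011 without I3 2, so its sign was not stable. Over the 9 chaperone genes the log2 fold changes lay between -0.07 and 0.06, 8 of them above 0, and no unadjusted p was under 0.05. Their median of 0.016 turned to -0.012 with the GC trend removed, -0.059 without control 2, -0.030 without I3 1 and -0.015 without I3 3, so the count above 0 gives no stable direction.

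The chaperones differed more between libraries of the same group than between the groups. Their summed level was 1081, 904 and 1028 FPKM in control 1, 2 and 3 and 1099.6, 897 and 1047 FPKM in I3 1, 2 and 3. Library 2 was thus the lowest in both groups, and the mean sums of 1004 ± 91.1 FPKM in control and 1015 ± 105 FPKM in I3 (mean ± SD, n = 3) differed by less than this spread. Gene by gene, 8 of the 9 chaperones (HSPA5, HSP90B1, DNAJB9, DNAJB11, DNAJC3, HYOU1, PDIA4 and PDIA6) were lowest in library 2 of both groups, as were 15 of all 35 genes, beside 17.4% of all genes tested. This pattern was noticed in the values and then counted. With the GC trend of each library removed it held for 8 of the 9 chaperones, with SDF2L1 in place of DNAJB9, and for 12 of the 35 genes, beside 14.6% of all genes tested. DNAJC3, which deviated most of the 9 in library 2, had 20.2, 14.0 and 15.4 FPKM in control 1, 2 and 3 and 18.3, 13.4 and 18.2 FPKM in I3 1, 2 and 3.

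**Figure D3:**
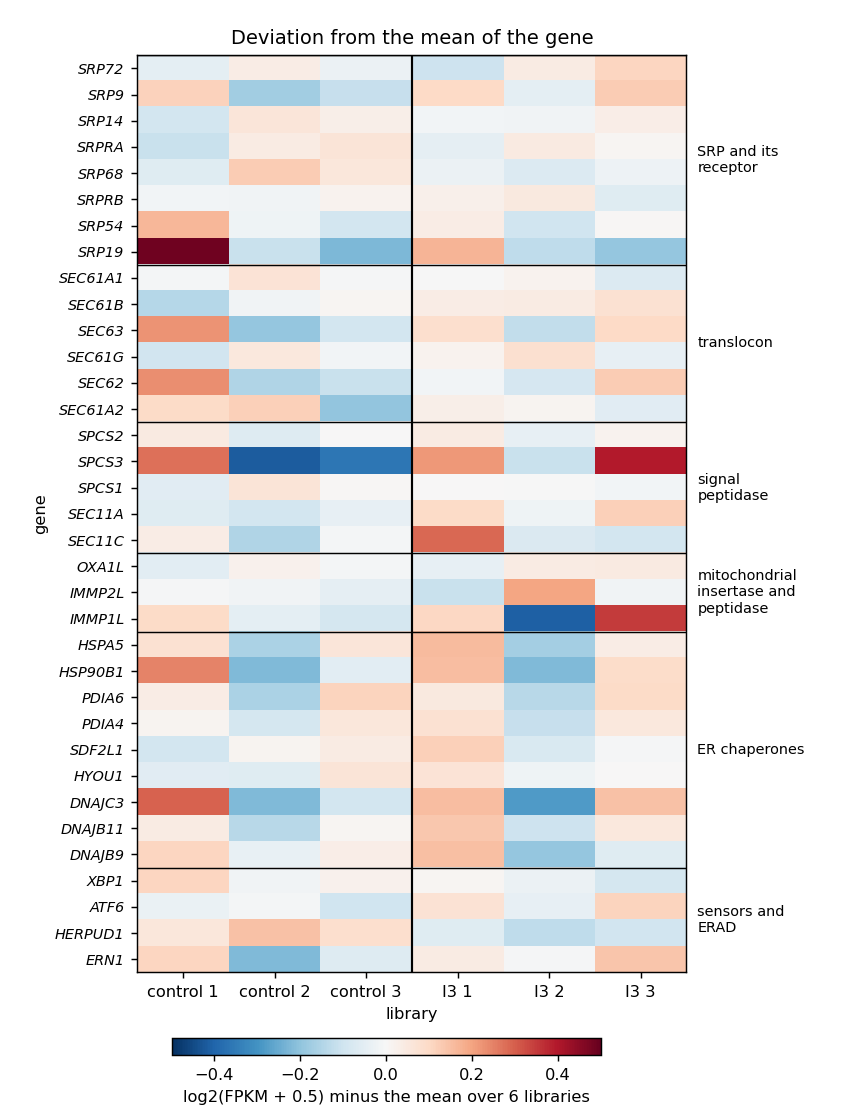
Each cell is log2(FPKM + 0.5) of a gene (rows, grouped by role) in a library (columns) minus the mean of the gene over the 6 libraries, red where it is above and blue where it is below. The column of library 2 is blue for 8 of the 9 chaperones in control and for all 9 in I3, and SRP19 in control 1 has the largest deviation of all, 0.488.

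Between libraries of a group, the SD of the median deviation on the log2 scale was 0.123 for the chaperones, 0.0673 for signal peptidase, 0.0456 for the sensors and ERAD genes, 0.0377 for the mitochondrial genes, 0.0343 for the translocon and 0.0214 for the SRP genes. Signal peptidase also had its lowest sum in library 2 of both groups (75.7 FPKM in control and 79.7 FPKM in I3), and SEC11A, SPCS2 and SPCS3 of its 5 genes were lowest there. With the GC trend removed this held for only 1 of the 5, SPCS3, beside 14.6% of all genes tested. Among the genes of the ER folding cycle outside the 35, 10 of 20 were also lowest in library 2 of both groups, CANX, CALR, PDIA3 and P4HB among them, as were 5 of 10 oligosaccharyltransferase genes. CALR, the ER calcium-binding chaperone calreticulin, had 1429, 1288 and 1416 FPKM in control 1, 2 and 3 and 1462, 1359 and 1419 FPKM in I3 1, 2 and 3. The genes of the ER membrane complex and tail-anchor route had the pattern of library 2 in 2 of 14 cases. It was also present in 8 of 19 ERAD genes outside the 35 and in 3 of 8 translocon partners. In the PERK and ATF4 arm it was 3 of 9, and in sensor processing 3 of 9, beside 17.4% of all genes tested. With the GC trend removed it held for 10 of 20 folding cycle genes and 6 of 10 oligosaccharyltransferase genes. In the ER membrane complex and tail-anchor route it then held for 1 of 14, in ERAD for 9 of 19 and in the translocon partners for 3 of 8. For the PERK and ATF4 arm it was then 4 of 9 and for sensor processing 2 of 9.

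Another measure that moved with the libraries was the GC content of the genes. Across the 35 genes, GC content and the library's deviation from the gene mean had a rank correlation of -0.529 in control 1, 0.390 in control 2, 0.653 in control 3, -0.282 in I3 1, 0.320 in I3 2 and -0.387 in I3 3. It had the same sign in each library as over the 12939 tested genes with a GC value, where it lay between -0.446 and 0.446. These correlations are across genes, which are not independent replicates. Control 2, control 3 and I3 2 share the positive sign, and in control 3 the chaperones HSP90B1 and DNAJC3 lay below their means and the other 7 above.

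XBP1, the transcription factor that IRE1 activates by splicing, took place 6 in the order of abundance. XBP1 (ENSG00000100219, chr22:28794555-28800597) had 109.8, 100.8 and 103.5 FPKM in control 1, 2 and 3 and 102.7, 99.9 and 95.8 FPKM in I3 1, 2 and 3. The 2 lowest values were of I3 libraries, but I3 1 stood above control 2 and the groups overlapped. Its log2 fold change was -0.07 (SE 0.05, 95% interval -0.20 to 0.05, adjusted p = 0.998, limma with Benjamini-Hochberg adjustment), which was -0.039 without control 1 and -0.047 without I3 3.

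ERN1, which encodes the sensor IRE1, was among the least abundant genes, with 1.27, 0.910 and 1.07 FPKM in control 1, 2 and 3 and 1.19, 1.14 and 1.31 FPKM in I3 1, 2 and 3. These values of ERN1 (ENSG00000178607, chr17:64039142-64130819) rest on 176 to 259 reads, and the groups overlapped. ERN1 had a log2 fold change of 0.12 (SE 0.14, adjusted p = 0.998, limma with Benjamini-Hochberg adjustment), which was 0.20 without control 1, 0.035 without control 2 and 0.076 without I3 3. ATF6 (ENSG00000118217, chr1:161766294-161964070), the sensor that is cut in the Golgi to release a transcription factor, had 13.0, 13.2 and 12.4 FPKM in control 1, 2 and 3 and 14.0, 12.9 and 14.4 FPKM in I3 1, 2 and 3. I3 1 and I3 3 lay above all controls and I3 2 lay among them. ATF6 had a log2 fold change of 0.10 (SE 0.06, 95% interval -0.05 to 0.25), with an unadjusted p of 0.177 and an adjusted p of 0.998 in limma. With the GC trend removed its log2 fold change was 0.045.

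HERPUD1, a membrane protein of ERAD whose gene responds to ER stress, was the 1 gene of the 35 with an unadjusted p under 0.05. HERPUD1 (ENSG00000051108, chr16:56932048-56944863) had 3.95, 4.24 and 4.03 FPKM in control 1, 2 and 3 and 3.60, 3.42 and 3.51 FPKM in I3 1, 2 and 3. Every I3 library lay below every control library, with means of 4.08 ± 0.147 FPKM in control and 3.51 ± 0.0903 FPKM in I3 (mean ± SD, n = 3). The log2 fold change was -0.19 (SE 0.07, 95% interval -0.36 to -0.02), with an unadjusted p of 0.0305 and an adjusted p of 0.978 in limma, so that it did not pass. The values rest on 1113 reads in the controls and 974 in I3, a ratio of 1.16 after division by depth (exact binomial 95% interval 1.06 to 1.27, for counting error only). Its unadjusted p was 0.0529 with voom on rebuilt reads, and it was above 0.05 without control 2 (0.0975), control 3 (0.0676), I3 1 (0.0543), I3 2 (0.0839) or I3 3 (0.0699). HERPUD1 carries ERSE-II in its promoter, as do HYOU1 and SDF2L1, whose log2 fold changes were 0.03 and 0.02. The 4 genes with ERSE had log2 fold changes of 0.02 for HSPA5, 0.02 for HSP90B1, 0.01 for PDIA6 and -0.07 for XBP1.

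**Figure D4:**
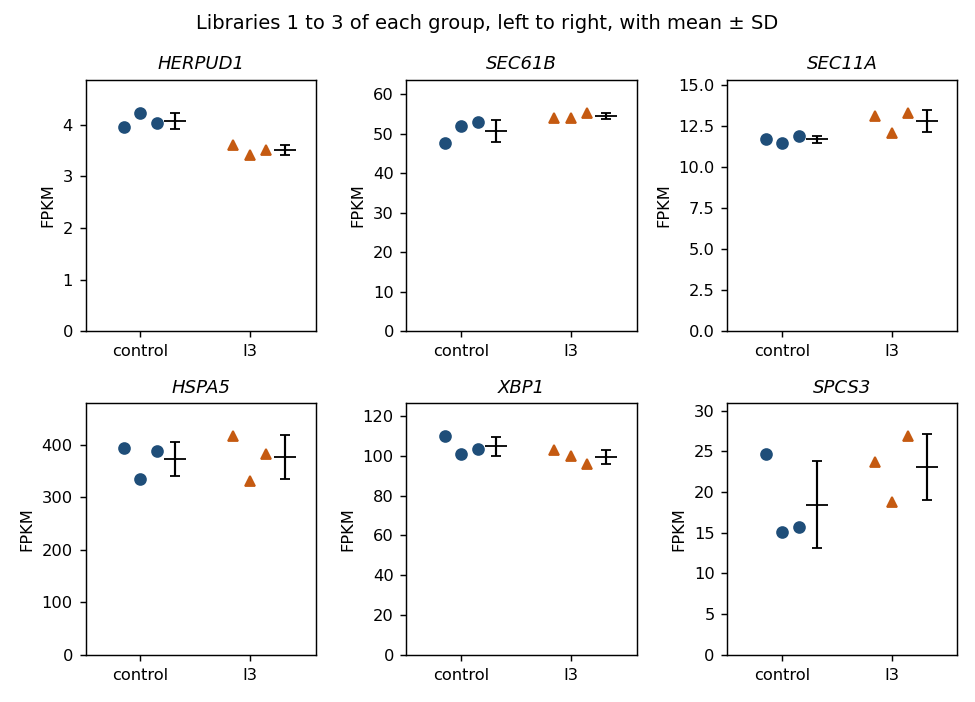
FPKM (y axis, from 0) of 6 of the genes, with a circle for each control library and a triangle for each I3 library, numbered 1 to 3 from left to right, and the mean ± SD (n = 3) beside them. HERPUD1, SEC61B and SEC11A are the 3 genes whose groups do not overlap, while HSPA5 is lowest in library 2 of both groups and control 1 of SPCS3 lies among the I3 libraries.

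The order of the levels depends on the length by which reads are divided. By exon length of the whole gene, as deposited, the order began with HSPA5, HSP90B1, SRP72, PDIA6 and SRP9. Per kilobase of the median protein-coding transcript, a choice made after the data had been seen, HSP90B1 came first with 981 and HSPA5 second with 374, since the exons of HSP90B1 in the annotation add up to 4695 bases against a median transcript of 1338 bases. ERN1 was the lowest on that scale with 2.51. SRP72 held place 3 on both scales. Processed pseudogenes named for the members drew few reads, with SPCS2P4 at 4.04 FPKM, SRP9P1 at 2.30 FPKM and all others at or below 0.417 FPKM.

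The other genes of the pathway were read from 7 lists with 96 genes, of which 94 were in the table and 89 were tested. WFS1 and TUSC3 were not analysed here. At an unadjusted p under 0.05 in limma, 1 of the 89 was higher and 1 was lower, and none passed the adjusted p, beside 2.08% higher and 2.85% lower among all genes tested. The groups did not overlap for 2 genes that were higher and 6 that were lower, beside 5.06% and 4.64% of all genes tested.

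The PERK and ATF4 arm, which slows translation and turns on amino acid and redox genes, had 9 genes tested, with a median log2 fold change of -0.11. In this arm 8 of 9 were below 0, beside 5934 of all 12960 genes tested. The median and this count were not recomputed under the alternatives, so they give no settled direction. The 9 log2 fold changes ran from -0.39 to 0.09, and none of the 9 had an unadjusted p under 0.05 in limma. ATF4, its central transcription factor, had 166.9, 179 and 167 FPKM in control 1, 2 and 3 and 160.3, 164 and 152 FPKM in I3 1, 2 and 3. All 3 I3 libraries lay below all controls (log2 fold change -0.11, adjusted p = 0.998, limma with Benjamini-Hochberg adjustment). PPP1R15A (GADD34), which restores translation, had a log2 fold change of -0.15 with overlapping groups, and DDIT3 (CHOP) one of -0.02.

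The 9 genes tested for sensor processing and related factors had a median log2 fold change of -0.02. MBTPS2, the site-2 protease that releases ATF6, had 2.20 ± 0.114 FPKM in control and 2.51 ± 0.0972 FPKM in I3 (mean ± SD, n = 3), with all I3 libraries above the controls. CREB3, an ER-bound transcription factor related to ATF6, had 5.76 ± 0.400 and 5.08 ± 0.306 FPKM, with all I3 libraries below the controls. Both had an adjusted p of 0.998 in limma with Benjamini-Hochberg adjustment. In ERAD, 19 genes were tested, 10 above 0 and 9 below, and the smallest unadjusted p belonged to the ubiquitin-conjugating enzyme UBE2G2 (log2 fold change 0.16), with overlapping groups.

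All 8 translocon partners had log2 fold changes above 0, beside 7026 of all 12960 genes tested. Their median was 0.03. The median and this count were not recomputed under the alternatives, so they give no settled direction. TRAM2 (0.14) and SSR1 (0.10) had the smallest unadjusted p values among the 8 partners, and in both the groups overlapped. The 10 oligosaccharyltransferase genes, which attach N-glycans to entering chains, had a median of 0.0083. OSTC had 57.9, 50.3 and 52.7 FPKM in control 1, 2 and 3 and 63.5, 55.3 and 65.0 FPKM in I3 1, 2 and 3. I3 2 lay below control 1, and the log2 fold change was 0.19 (unadjusted p = 0.0528 and adjusted p = 0.998, limma). MAGT1 had a log2 fold change of 0.10. In the ER membrane complex and tail-anchor route, 14 genes were tested with a median of -0.01, and CAMLG, a receptor for tail-anchored proteins, had 27.9 ± 0.680 FPKM in control and 26.1 ± 0.639 FPKM in I3 (mean ± SD, n = 3), all I3 libraries below the controls, while EMC9 had a log2 fold change of 0.17.

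The lectin cycle and folding list held both genes past the unadjusted p. UGGT1, which returns misfolded glycoproteins to calnexin, had 33.4, 30.6 and 33.5 FPKM in control 1, 2 and 3 and 36.8, 34.5 and 37.8 FPKM in I3 1, 2 and 3. All I3 libraries lay above all controls, with a log2 fold change of 0.16 (SE 0.06, unadjusted p = 0.0342 and adjusted p = 0.998, limma).

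TXNDC5 (ERp46, ENSG00000239264, chr6:7881517-7910814), a protein disulfide isomerase, stood far from all other genes of these lists. It had 0.955, 2.61 and 2.42 FPKM in control 1, 2 and 3 and 0.333, 0.154 and 0.138 FPKM in I3 1, 2 and 3. No I3 library reached any control, although control 1 lay much below the other controls. Its log2 fold change was -1.75 (SE 0.31), with an unadjusted p of 0.000647 and an adjusted p of 0.516 in limma, so that it did not pass either. Behind it stood 74, 204 and 186 reads in the controls and 26, 12 and 11 in the I3 libraries, a ratio of 9.62 after division by depth (exact binomial 95% interval 7.16 to 13.2, for counting error only). Without control 1 the adjusted p was 0.122, and over the settings in which it was tested it lay between 0.122 and 0.974. The size of the log2 fold change depended on the pseudocount, at -1.26 with 1, -2.70 with 0.1 and -3.18 with 0.01, and it was -3.21 with voom on rebuilt reads. Of its 4387 exon bases, 2658 are shared with the readthrough gene BLOC1S5-TXNDC5, which is not analysed here, and BLOC1S5 itself had 6.17, 4.05 and 4.77 FPKM in control 1, 2 and 3 and 5.30, 5.31 and 5.44 FPKM in I3 1, 2 and 3. The related isomerases P4HB and PDIA3 had log2 fold changes of -0.02 and -0.06.

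**Figure D5:**
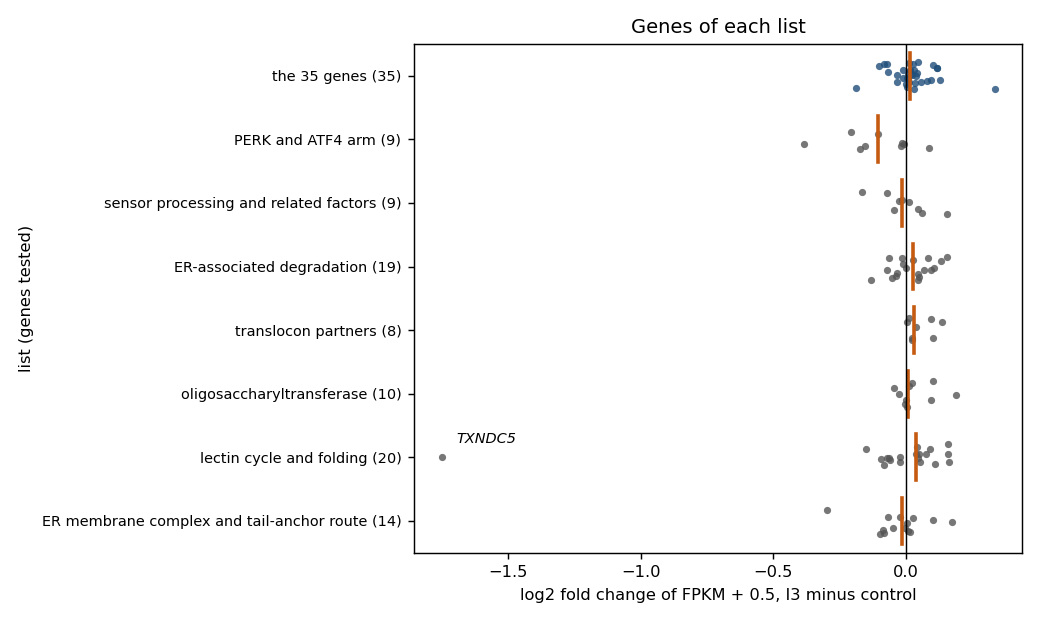
Log2 fold change (I3 minus control, x axis) of the 35 genes and of the tested genes of 7 further lists (y axis, with the number of genes), each point a gene, spread vertically at random, and each bar the median of its list. TXNDC5, at -1.75 on log2(FPKM + 0.5), lies far to the left of all other genes, and the medians lie between -0.11 and 0.04.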

How the data were processed

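Total RNA of Kasumi-1 cells was extracted with Trizol and libraries were prepared by the authors with a stranded mRNA kit. Per the submitters' processing notes, Trimmomatic, HISAT2, HTSeq and Cufflinks were used with hg38. The sources used here do not give their versions, the annotation release or whether counting used the strand. The authors tested counts with DESeq and deposited FPKM values, 1 column per library, of which none was left out. The deposited file is named for I13, while the labels and methods give I3, and a legend gives 72 h where labels and methods give 48 h.

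Since FPKM is not a count, log2(FPKM + 0.5) was tested with limma 3.58.1 in R 4.3.3 (eBayes with trend, two-sided) over the 12960 genes whose mean FPKM reached 0.5, 3 I3 against 3 control libraries without covariates, with Benjamini-Hochberg adjustment and the fold threshold of the methods, 0.58. On this scale folds of genes with a low FPKM come out too small. Identifiers, lengths and coordinates came from GENCODE release 29 on GRCh38 (29703 of 29810 matched). FPKM times exon length gave whole reads within 0.1 read for 25393 of 26519 genes (95.8%). SRP72, SRP19 and IMMP1L were not among them, so their reads are approximate. The depth of 17500320 to 18193373 reads per library limits genes with few reads, and the exact binomial intervals of read ratios cover counting error only, whereas limma's intervals come from the spread between libraries. Ratios of paralogs were compared with exact permutation tests (scipy 1.17.1). The procedure was tested on simulated data, but the outcome is not given here and no result rests on it.

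The members and lists were chosen with earlier results of these data known. Values per library are given for members with an unadjusted p under 0.05 or groups that do not overlap, HSPA5, XBP1, ERN1, ATF6, DNAJB9, HERPUD1, the most abundant member of each role and the 3 with the largest fold change. Of the other lists the 2 genes with the smallest p were named (a result among these and a marker are not reported here), and DDIT3, CALR, P4HB, PDIA3, DNAJC3 and SRP19 were added after their values were seen. Alternatives were pseudocounts of 0.1, 0.01 and 1, no minimum FPKM or 1 or 5, TPM, median-of-ratios and quantile scaling, lowess removal of the GC trend (span 0.3), no trend, a replicate block, the omission of each library and voom on rebuilt reads.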

Additional observations from a re-analysis of the deposited data

How the results depend on the processing

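None of the 35 genes passed the adjusted p under any of the alternatives, the smallest being 0.425. In the whole table the calls rose from 0 only with single libraries left out, to between 0 and 1 gene higher (1 without control 1) and between 0 and 2 genes lower (2 without I3 1, 1 without I3 2). Of the 13 genes of the 35 whose fold change was recomputed gene by gene, 9 kept its sign in every setting in which they were tested (DNAJB9, ERN1 and HERPUD1 do not reach the minimum of 5 FPKM) and 4 did not, all with small log2 fold changes. With the GC trend removed, alone or with the replicate block, it was -0.036 for SRP72, -0.022 for SPCS2 and -0.012 for HSPA5, and median-of-ratios scaling gave -0.00085 for SPCS2. With each library left out it ran from -0.018 to 0.087 for SRP72, from -0.017 to 0.037 for SPCS2, from -0.059 to 0.10 for HSPA5 and from -0.16 to 0.011 for DNAJB9. Among genes that kept their sign, SEC61A1 was at -0.0083 without control 2 and -0.0090 without I3 3, OXA1L ran from 0.0096 (without control 1) to 0.058 (without I3 1), and ATF6 was at 0.045 with the GC trend removed. The log2 difference of the SEC61A1 to SEC61A2 ratio, -0.02, became 0.0083 with the GC trend removed and ran from -0.095 to 0.093 without single libraries, and that of SEC11A to SEC11C, 0.04, from -0.058 to 0.17. The median of the 35 genes, 0.016, became -0.018 with the GC trend removed and ran from -0.0059 (without I3 1) to 0.052 (without I3 2) without single libraries, with 0.037 without control 1 and 0.00071 without I3 3. That of the SRP genes, 0.0022, became -0.027 with the GC trend removed and -0.011 with median-of-ratios scaling, and ran from -0.016 (without I3 3) to 0.017 (without control 3).

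Among the 35 genes, the number with an unadjusted p under 0.05 was 2 with no minimum FPKM (with SEC11A), 2 after quantile normalization (with SEC61B), 0 with a minimum of 5, which HERPUD1 does not reach, and 0 with voom. Leaving out a library gave from 0 to 4 (4 without control 1, with SPCS3, SRP68 and SRP9, and 0 without control 2, control 3, I3 1 or I3 3). Groups that did not overlap fell to 1 gene with median-of-ratios scaling (HERPUD1), and numbered from 4 to 9 without single libraries (9 without control 1, 5 without control 3, 7 without I3 1, 6 without I3 2), where fewer libraries make this more frequent. Over all genes, 639 at an unadjusted p under 0.05 became 1038 with no minimum, 302 with a minimum of 5 and 1417 without control 1. The cause of these shifts was not tested.

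The labels do not say whether the replicate numbers mark a shared day or culture. The deviations of same-numbered libraries correlated at 0.0634, 0.151 and -0.0239 for numbers 1, 2 and 3. Not every pair exceeded 0.1, so the numbers were not taken to pair the samples, though the value for number 2 was the highest of all pairs of a control and an I3 library. Control 1 correlated best with I3 3 (0.101). With the replicate block, 856 genes had an unadjusted p under 0.05, HERPUD1 again the 1 of the 35, and 0 genes were called. Precision is limited by 3 libraries per group.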
